A study of Mus musculus with 2 samples.

Results

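The 5 genes described here, Rgs5, Abcc9, Kcnj8, Notch3 and Cspg4, are widely used to recognise pericytes. They were chosen by their CPM and shares of positive cells in these same libraries, which showed them in cells that carry no pericyte label, so their levels across cell types are given as a description and no test supports the choice. All 5 were listed in both libraries, among 16381 genes for the colon, 18262 for the small intestine and 16098 common to both. Stromal cells of healthy, untreated mice were profiled with 1 droplet library per tissue, after removal of epithelium by EDTA, enzymatic digestion for 60 min (colon) or 45 min (small intestine) and sorting of live cells negative for CD45 and EpCAM. Both tissues therefore differ also in digestion time. The labels used here do not give the strain, age, sex or number of the mice. With 1 library per tissue there is no replicate check, and every interval below is a 95% interval for counting error only.

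Pericytes are mural cells that sit on the wall of capillaries and small venules, in contact with the endothelium, and depend on PDGF-B signalling through the receptor PDGFRB. No single gene defines them, and each of the 5 genes is also known from other contractile or mesenchymal cells. Rgs5 encodes a regulator of G protein signalling that shortens signals from G protein-coupled receptors. Kcnj8 encodes Kir6.1, the pore, and Abcc9 encodes SUR2, the sulfonylurea receptor subunit, of the ATP-sensitive potassium channel of vascular cells. Notch3 encodes a Notch receptor of mural cells that is activated by ligands on neighbouring cells, and Cspg4 encodes the transmembrane proteoglycan NG2.

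The library of the colon held 6018 cells and 40684070 UMIs (1 UMI marks 1 captured RNA molecule), with a median of 6598 UMIs per cell, and that of the small intestine 9359 cells and 58134526 UMIs, with a median of 5943. The authors' labels gave 6 types with at least 50 cells in each tissue: CD81- FBs (fibroblasts), CD81+ trophocytes, PDGFRa-high SEMFs, LECs (lymphatic endothelium), BECs (blood endothelium, pooled over capillary, arterial and venous labels in the colon) and SMCs (smooth muscle). SEMFs numbered 1105 in the colon and 1109 in the small intestine, and carried the highest level of 8 of 8 listed SEMF markers in the colon and 7 of 8 in the small intestine. The 6 lymphatic markers were highest in LECs and the 7 smooth muscle markers highest in SMCs in both tissues. Of 7 trophocyte markers, 6 peaked in trophocytes in each tissue. The label CD81- FBs was matched less well by its own marker list. In the colon 3 of the 5 markers peaked in CD81- FBs, 1 in trophocytes and 1 in SEMFs. In the small intestine 1 of the 4 measured markers peaked in CD81- FBs, 2 in trophocytes and 1 in SMCs. Cells labelled SMCs in the small intestine also held 9211 CPM of Adamdec1, a fibroblast gene, against 1242 CPM in the colon. Barcodes found in both libraries numbered 21.

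Pericyte labels were given to 8 colon cells (5 ecmPCs, 2 myPCs and 1 endoPCs, as labelled) and 0 cells of the small intestine. These 8 cells, 0.133% of the colon cells, held 34676 UMIs in all. Rgs5 had 79 UMIs there, in 7 of the 8 cells, which is 2278 CPM (CPM, UMIs of the gene scaled to 1e6 UMIs of the type; interval 1804 to 2839). Notch3 had 19 UMIs in 7 cells, or 548 CPM (330 to 856). Both genes were therefore found in nearly every cell with the label, and in all 5 of the ecmPCs. Of the 8 cells, 3 were among the colon cells with the highest doublet scores, against 361 of 6018 in the whole library. They were kept, and the part of other cell types in their UMIs was not tested.

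Kcnj8 had 12 UMIs in 5 of the 8 cells (346 CPM), Abcc9 10 UMIs in 4 cells (288 CPM) and Cspg4 3 UMIs in 2 cells (86.5 CPM). At least 3 of the 5 genes were detected together in 6 of the 8 cells. Pdgfrb, the PDGF-B receptor, had 10 UMIs in 6 of them, Pdgfra 1 UMI, and the endothelial genes Cdh5 and Pecam1 had 0 UMIs. The contractile genes Acta2 and Tagln were concentrated in the 2 myPCs, with 67 of 86 and 50 of 63 UMIs. Of the ecmPCs, 1 cell held 30 of the 33 Adamdec1 UMIs found in the 8 cells.

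These few cells accounted for very different parts of each gene's signal in the colon. They held 29.7% of all Notch3 UMIs of the library (19 of 64; interval 18.9 to 42.4%) and 4.96% of the Rgs5 UMIs. For Kcnj8 the share was 1.65%, for Abcc9 1.29% and for Cspg4 0.416%. Nearly all molecules of the last 3 genes therefore came from cells with other labels. The log2 ratio of the pericyte-labelled cells over all other colon cells was 8.95 for Notch3, 5.93 for Rgs5, 4.30 for Kcnj8, 3.93 for Abcc9 and 2.29 for Cspg4 (0.01 to 3.85 for the last).

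**Figure D1:**
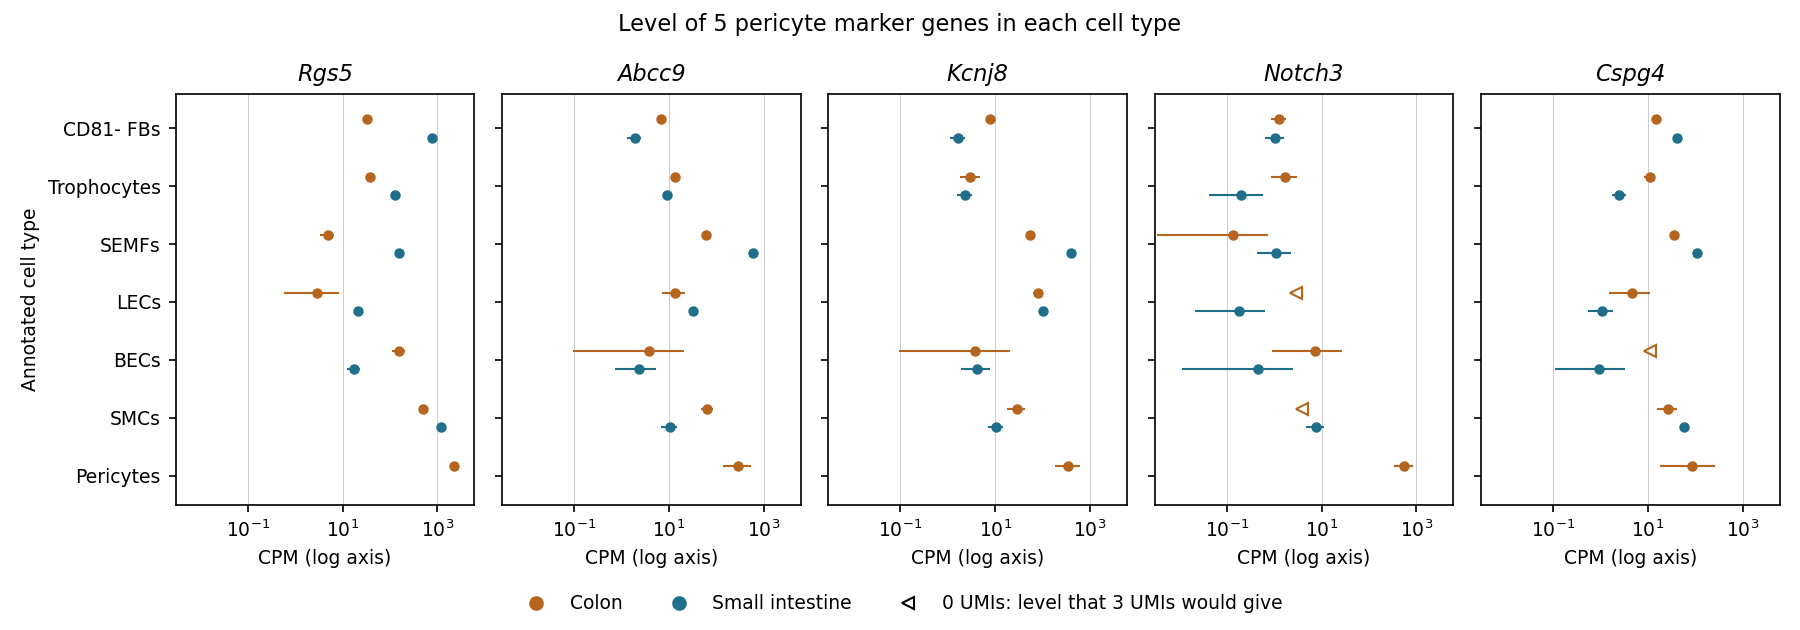
Level of each of the 5 genes (CPM, log axis) in the 6 compared cell types and in the 8 pericyte-labelled colon cells, for colon (brown) and small intestine (blue); bars are exact Poisson 95% intervals and open triangles mark types with 0 UMIs at the level that 3 UMIs would give. Abcc9 and Kcnj8 reach 585 and 392 CPM in small intestinal SEMFs, Rgs5 reaches 778 CPM in CD81- FBs of that tissue, and Notch3 stays at or under 7.48 CPM in every type but the pericyte-labelled cells.

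The channel genes come first, since SEMFs held most of the UMIs of both subunits in each tissue. Abcc9 was at 60.4 CPM in colon SEMFs (449 UMIs, 26.7% of cells) and at 585 CPM in small intestinal SEMFs (3818 UMIs, 90.2% of cells). Kcnj8 was at 53.7 CPM (399 UMIs, 26.3% of cells) and 392 CPM (2558 UMIs, 82.0% of cells). Each gene was thus found in a minority of the colon cells with this label, and in most of those of the small intestine.

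SEMFs held 86.8% of all Abcc9 UMIs and 67.6% of all Kcnj8 UMIs of the small intestinal library, and 57.7% and 54.8% of those of the colon. In that small intestinal type Abcc9 exceeded the next type, LECs at 32.7 CPM, by 4.16 on the log2 scale (4.01 to 4.32). Kcnj8 exceeded LECs, at 99.6 CPM, by 1.98 (1.88 to 2.08). Over all other cells together the log2 ratio of SEMFs was 5.70 for Abcc9 and 4.05 for Kcnj8 in the small intestine, and 2.61 and 2.44 in the colon. Being at least 2-fold above every other type, as these 2 members were in small intestinal SEMFs, held for 2.83% of 12955 genes. No member met that in colon SEMFs, where 1.98% of 12224 genes did.

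The level was not set by a few cells. The median small intestinal SEMF held 3 Abcc9 UMIs and 2 Kcnj8 UMIs, and the 10% of cells with the most held 27.9% of the Abcc9 and 30.0% of the Kcnj8 UMIs. In the colon the median was 0 for both, the highest cell held 7 Abcc9 and 4 Kcnj8 UMIs, and the top 10% of cells held 59.0% and 54.9%. The low signal in the colon was therefore spread over many cells with 1 or 2 UMIs each.

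Outside SEMFs the channel genes parted. Kcnj8 was at 77.9 CPM in colon LECs (83 UMIs, 28.6% of cells) and 99.6 CPM in small intestinal LECs (1116 UMIs, 28.8%). In the colon this was above SEMFs by 0.54 on the log2 scale (0.18 to 0.88), so LECs were the type with the most Kcnj8 there. Abcc9 was lower in the same cells relative to SEMFs, with 14 UMIs in 13 of 217 colon LECs (13.1 CPM) and 366 UMIs in 261 of 2498 small intestinal LECs (32.7 CPM). In colon SMCs Abcc9 reached 64.7 CPM (50 UMIs, 27.2% of cells), within counting error of colon SEMFs (log2 ratio 0.10, -0.35 to 0.52), and Kcnj8 28.5 CPM (22 UMIs). Small intestinal SMCs held 29 UMIs of each gene (10.3 CPM).

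Other genes were compared between Kcnj8-positive and Kcnj8-negative cells within the LEC label. Both groups carry that label, so the shares cannot show where the Kcnj8 UMIs came from. With each cell thinned at random to 2000 UMIs, so that all had the same depth, the lymphatic gene Mmrn1 was found in 100% of 396 Kcnj8-positive and 98.9% of 1954 Kcnj8-negative small intestinal LECs. Prox1, the lymphatic transcription factor, was found in 76.8% and 73.2%, and Pdgfra in 1.77% and 1.54%. In the 31 Kcnj8-positive colon LECs the shares were 100% for Mmrn1, 48.4% for Prox1 and 9.68% for Pdgfra, against 98.9%, 62.4% and 3.76% in the 186 Kcnj8-negative cells. Abcc9 was found in 8.33% of Kcnj8-positive and 4.30% of Kcnj8-negative LECs of the small intestine.

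Blood endothelium is given beside these types for comparison. Kcnj8 had a UMI in 1.72% of 524 small intestinal BECs (median depth 3652 UMIs) and Abcc9 in 0.763%, against 82.0% and 90.2% of SEMFs (median depth 5510). The BECs of the colon held 1 UMI of each gene in 53 cells. SEMF and LEC shares of Kcnj8 were higher than these, as was the Abcc9 share in small intestinal LECs at 10.4%. Free RNA was not measured in empty droplets here, and its part in any of these shares was not tested.

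Abcc9 and Kcnj8 are also neighbours in the genome. On GRCm38, the build named mm10 in the submitters' processing notes, Kcnj8 (ENSMUSG00000030247.9) lies at chr6:142564837-142571614 and Abcc9 (ENSMUSG00000030249.15) at chr6:142587862-142702315, both on the minus strand. The gap between them is 16247 bases and holds 0 RefSeq genes that start and end within it. Their promoters are shown because SEMFs held most of the UMIs of both genes, and the genes differed in LECs. The sequences are the 250 bases before each RefSeq gene start (GRCm38.p6), 5′ to 3′ on the minus strand, with CG dinucleotides in capitals.
Abcc9, chr6:142702275-142702524: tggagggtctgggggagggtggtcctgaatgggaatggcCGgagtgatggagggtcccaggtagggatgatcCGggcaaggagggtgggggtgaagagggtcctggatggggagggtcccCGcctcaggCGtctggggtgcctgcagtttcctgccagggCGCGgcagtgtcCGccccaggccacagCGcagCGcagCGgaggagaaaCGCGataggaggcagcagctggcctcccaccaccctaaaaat
Kcnj8, chr6:142571615-142571864: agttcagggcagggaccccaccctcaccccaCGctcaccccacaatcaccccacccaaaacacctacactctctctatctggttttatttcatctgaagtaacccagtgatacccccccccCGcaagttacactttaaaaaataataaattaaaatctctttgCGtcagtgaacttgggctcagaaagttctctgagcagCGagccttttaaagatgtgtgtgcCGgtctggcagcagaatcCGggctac

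The Abcc9 stretch holds 12 CG dinucleotides at 66.8% G and C, and the Kcnj8 stretch 6 at 49.2%. The median over 32851 RefSeq promoters of this length is 6 and 52.4%. Both strands were searched for GTGGGAA (RBPJ, the Notch cofactor), GACCACCCA (GLI), TGTTTAC (forkhead), TATAAA and the CArG box of serum response factor, no 2 of which contain each other. None of the 5 genes' stretches held any of them. The shares of all promoters with a match were 5.42%, 0.225%, 3.17%, 12.4% and 1.47% in that order. No match says only that these letters are not in this window.

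Cspg4 (chr9:56865033-56899870, plus strand) had its highest level in SEMFs in both tissues, but was spread more widely than the channel genes. It was at 34.8 CPM in colon SEMFs (259 UMIs, 19.5% of cells) and 106 CPM in small intestinal SEMFs (690 UMIs, 42.9%). SMCs followed at 25.9 CPM (20 UMIs) and 56.3 CPM (158 UMIs, 25.4%), and CD81- FBs at 14.6 CPM (361 UMIs, 9.01%) and 41.1 CPM (829 UMIs, 23.1%). SEMFs and SMCs of the colon did not differ beyond counting error (log2 ratio 0.43, -0.23 to 1.16), while those of the small intestine did (0.91, 0.66 to 1.17).

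Over all other cells together, SEMFs had a log2 ratio of 1.33 in the colon and 2.39 in the small intestine. By molecules, the more numerous CD81- FBs held the largest part of Cspg4 in both tissues, 50.1% in the colon and 47.8% in the small intestine. Trophocytes had 10.8 CPM in the colon (69 UMIs) and 2.46 CPM in the small intestine (37 UMIs). LECs had 5 and 12 UMIs. BECs had 0 UMIs in 53 colon cells, which allows a share of up to 5.66% (3 counts), and 2 UMIs in 524 small intestinal cells. In that library, the share of cells with Cspg4 was 23.1% in CD81- FBs (median depth 6977 UMIs) and 0.382% in the shallower BECs (median depth 3652 UMIs).

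Rgs5 (ENSMUSG00000026678.10, chr1:169655501-169695813, plus strand) followed another order of cell types. In SMCs it was at 500 CPM in the colon (386 UMIs, 48.8% of cells) and 1188 CPM in the small intestine (3334 UMIs, 77.6%). In CD81- FBs it was at 32.6 CPM (806 UMIs, 10.8%) and 778 CPM (15683 UMIs, 78.1%). SEMFs held 4.84 CPM (36 UMIs, 1.18%) and 157 CPM (1021 UMIs, 29.6%). Over all other cells together, SEMFs were lower, at -3.27 in the colon and -1.39 in the small intestine on the log2 scale. SMCs were highest in both tissues, and CD81- FBs came close to them only in the small intestine, where the log2 ratio of SMCs over CD81- FBs was 0.61 (0.56 to 0.66).

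CD81- FBs held 70.6% of the 22228 Rgs5 UMIs of the small intestinal library, SMCs 15.0% and SEMFs 4.59%. The median CD81- FB of that tissue had 4 Rgs5 UMIs, 43.6% of them had 5 or more, and the top 10% of cells held 36.0%. In the colon the median was 0 and the top 10% of cells held 96.7%. Trophocytes were at 37.8 CPM in the colon (241 UMIs in 51 cells, 41 of them in 1 cell) and 127 CPM in the small intestine (1908 UMIs, 28.4% of cells). Rgs5 was thus a common transcript of small intestinal CD81- FBs and present in few colon cells of that label.

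Endothelial cells had little Rgs5 in the small intestine, with 21.5 CPM in LECs (1.96% of cells) and 17.3 CPM in BECs (2.86%). Thinned to 2000 UMIs, the 30 Rgs5-positive LECs there had Mmrn1 in 73.3% and Pdgfra in 16.7%, against 99.4% and 1.38% of the 2320 Rgs5-negative LECs. Colon BECs had 156 CPM, from 42 UMIs in 7 of 53 cells, with up to 14 UMIs in 1 cell. The same BECs held 2 Notch3 UMIs, and whether they carry RNA of attached mural cells was not tested.

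The SMC label differed between the tissues in what its Rgs5-positive cells also expressed. After thinning, Myh11, the smooth muscle myosin, was found in 100% of 48 Rgs5-positive and 98.7% of 75 Rgs5-negative colon SMCs. In the small intestine it was found in 68.0% of 294 Rgs5-positive and 81.4% of 161 Rgs5-negative cells, and the intestinal smooth muscle actin Actg2 in 46.9% and 69.6%. Adamdec1 was found in 97.6% and 94.4% of those small intestinal cells, close to the 99.2% of Rgs5-positive CD81- FBs, and in 58.3% and 48.0% of the colon SMCs. Fibroblast transcripts thus accompany the Rgs5 level of small intestinal SMCs, and their part in it was not tested.

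Notch3 (chr17:32120820-32166852, minus strand) was close to 0 in every compared type. CD81- FBs had 31 UMIs in 3631 colon cells (1.25 CPM) and 21 UMIs in 2823 small intestinal cells (1.04 CPM). SEMFs had 1 and 7 UMIs. The highest levels were 7.48 CPM in small intestinal SMCs (21 UMIs in 10 of 468 cells) and 7.42 CPM in colon BECs (2 UMIs). Colon SMCs and LECs had 0 UMIs in 125 and 217 cells, which allows shares of up to 2.40% and 1.38% of cells with a UMI.

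The CD81- FBs held 48.4% of the Notch3 UMIs of the colon library. Its 4 positive small intestinal SEMFs held 7 UMIs, and of the 3 that were still positive after thinning all had Rgs5 and 0 had Abcc9. This is too few cells for a statement on SEMFs at large.

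Detection of Pdgfra, the receptor that gives the SEMF label its name, was counted in SEMFs with and without each member. It cannot show which cell the UMI of a member came from. Among small intestinal SEMFs, Pdgfra was found in 999 of 1000 Abcc9-positive cells, 909 of 909 Kcnj8-positive cells, 476 of 476 Cspg4-positive cells and 326 of 328 Rgs5-positive cells. In the colon the counts were 292 of 295, 286 of 291, 212 of 215 and 12 of 13. Nearly every SEMF has a Pdgfra UMI at full depth, in member-negative cells too, so the comparison at equal depth is given next.

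At 2000 UMIs per cell, Pdgfra was found in 99.4% of 709 Abcc9-positive and 97.3% of 370 Abcc9-negative small intestinal SEMFs, and in 99.5% of 557 Kcnj8-positive and 97.9% of 522 Kcnj8-negative cells. The odds ratio was above 1 for 44.2% of 6314 genes tested the same way, and by it Abcc9 ranked 155 and Kcnj8 298 of 6314. These ranks rest on the few cells without Pdgfra, which was found in 98.7% of all thinned small intestinal SEMFs. It was found in 705 of the 709 Abcc9-positive and 554 of the 557 Kcnj8-positive cells, so no association is read from the ranks. For Cspg4 the shares were 98.5% and 98.8%, and for Rgs5 98.4% and 98.8%. Pdgfra was thus about as frequent with these 2 genes as without them.

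Colon SEMFs gave another picture for Kcnj8. Pdgfra was found in 79.5% of 112 Kcnj8-positive cells (70.8 to 86.5%) and 87.6% of 984 Kcnj8-negative cells (85.4 to 89.6%) after thinning, and Kcnj8 ranked 5243 of 5337 genes by the odds ratio, which was above 1 for 49.5% of them. The 2 intervals overlap. For Abcc9 the shares were 89.5% and 86.5%, and for Cspg4 83.6% and 87.0%. With 5 Rgs5-positive cells left after thinning, Rgs5 gives no usable share. The fibroblast and SEMF gene Adamdec1 was found in 94.6% of Kcnj8-positive and 91.8% of Kcnj8-negative colon SEMFs, and the SEMF marker F3 in 64.3% and 63.3%.

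**Figure D2:**
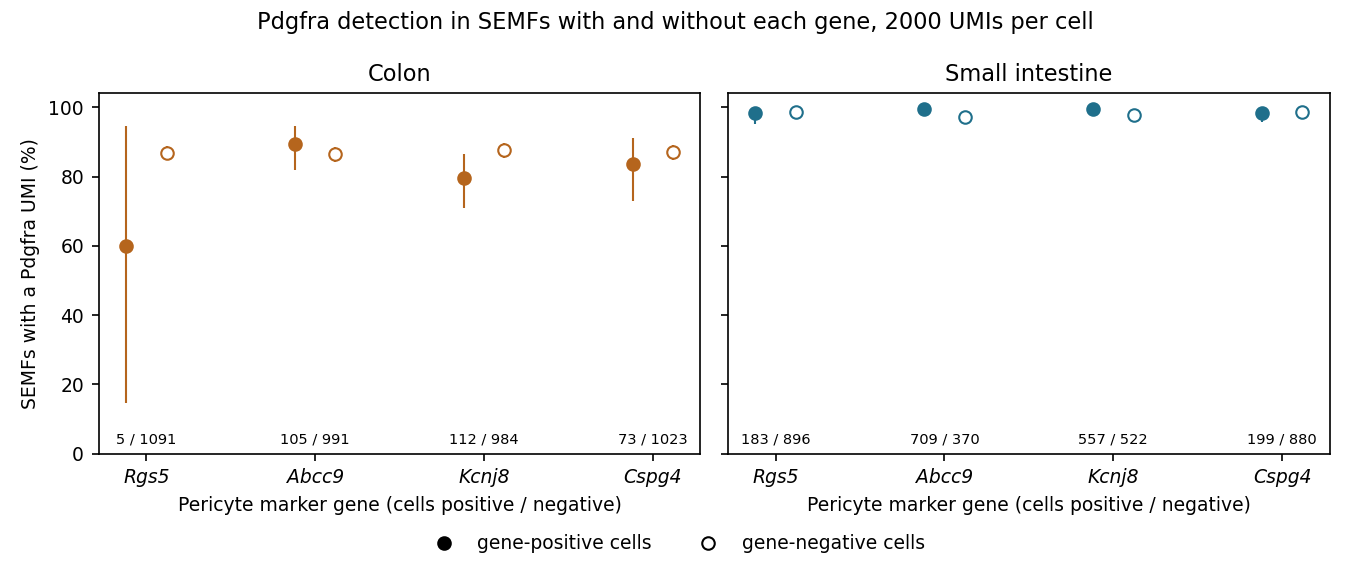
Share of SEMFs with a Pdgfra UMI (%) among cells positive (filled) and negative (open) for each gene, after thinning every cell to 2000 UMIs; bars are exact binomial 95% intervals and the numbers of positive and negative cells stand at the foot. In the small intestine all shares lie between 97.3% and 99.5%, and in the colon the Kcnj8-positive cells lie lowest of the 3 genes with more than 5 positive cells, at 79.5%.

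The 2 channel subunits were not strongly tied to each other from cell to cell. Among thinned small intestinal SEMFs, Kcnj8 was found in 52.8% of Abcc9-positive (49.0 to 56.5%) and 49.5% of Abcc9-negative cells (44.3 to 54.7%). Colon SEMFs had it in 13.3% and 9.89%. The odds ratio with Abcc9 was above 1 for 49.7% of 6313 small intestinal and 55.4% of 5337 colon genes, and Kcnj8 ranked 1631 and 875 among them. Cspg4 was found in 18.1% of Abcc9-positive and 19.2% of Abcc9-negative small intestinal SEMFs.

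Counted together, at least 1 of the 5 genes was found in 98.6% of small intestinal and 55.5% of colon SEMFs. At least 3 were found in 49.5% and 2.17%. After thinning these shares were 88.6% and 24.5% for at least 1 gene and 13.4% and 0% for at least 3. Among the other compared types, the highest share with 3 or more at full depth was 4%, in colon SMCs.

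**Figure D3:**
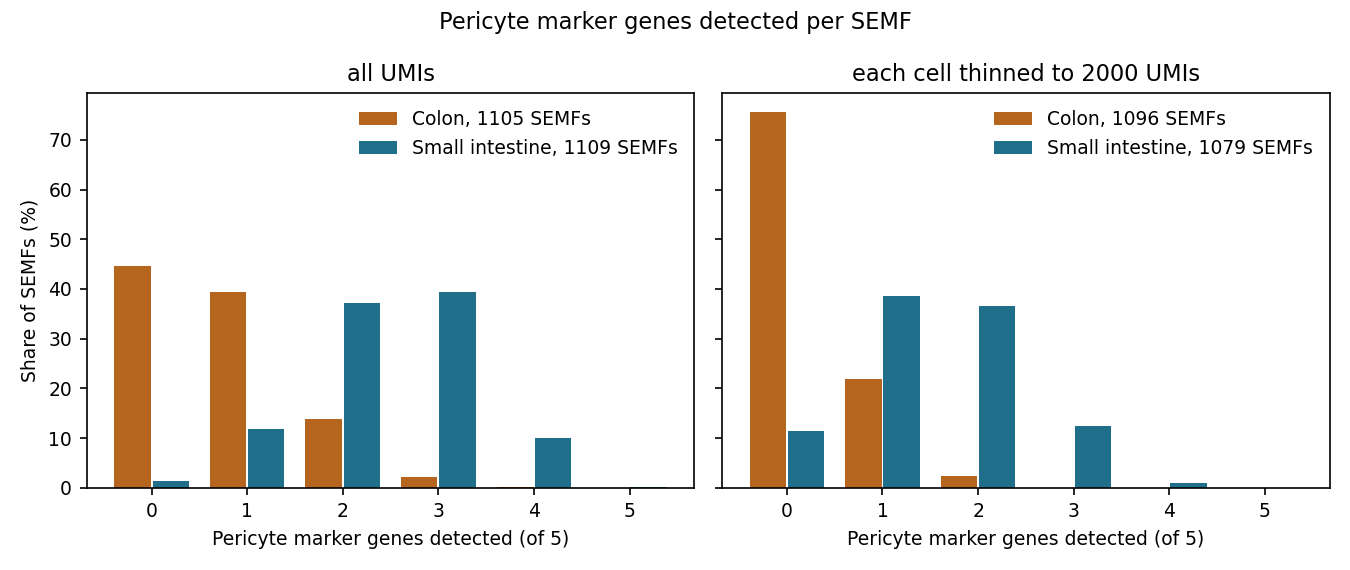
Share of SEMFs (%) in which 0 to 5 of the 5 genes were detected, for colon (brown) and small intestine (blue), with all UMIs (left) and with each cell thinned to 2000 UMIs (right). Small intestinal SEMFs with 3 or more genes make up 49.5% with all UMIs and 13.4% after thinning, colon SEMFs 2.17% and 0%.

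Between the tissues, every member was lower in colon SEMFs. The log2 ratio of colon over small intestine was -5.01 for Rgs5 (-5.54 to -4.54), -3.28 for Abcc9 (-3.42 to -3.14), -2.87 for Kcnj8 (-3.03 to -2.72) and -1.60 for Cspg4 (-1.81 to -1.39). Notch3 gave -3.0 from 1 and 7 UMIs, with an interval from -8.49 to -0.04. Of the 10001 genes with at least 100 UMIs in SEMFs of both libraries together, 15.1% were lower in the colon by at least 2-fold, as the 4 members that reached this number of UMIs were, and the median gene was at -0.33. These levels were known when the genes were chosen, so nothing is read from the count. Pdgfra itself was lower in colon SEMFs, at 1137 against 2778 CPM (log2 ratio -1.29).

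Rgs5 in colon SEMFs rests on few cells: 1 cell held 20 of the 36 UMIs, and without the highest cell of each tissue the ratio was -6.15. It was -5.95 without the cells with the highest doublet scores and -3.79 with only those colon cells that have Y-linked and no Xist UMIs. The ratio of colon SEMFs over other colon cells moved the same way, to -4.40, -4.56 and -2.33.

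Other types followed SEMFs in direction for some of the genes and not for others. In CD81- FBs the log2 ratio was -4.58 for Rgs5 and -1.49 for Cspg4, but 1.84 for Abcc9 (167 and 38 UMIs) and 2.24 for Kcnj8 (191 and 33 UMIs). Among 12194 genes tested in this type, 10.4% were lower and 6.46% higher in the colon by at least 2-fold. Abcc9 and Kcnj8 were low there in both tissues, at 6.76 and 1.89 CPM and at 7.73 and 1.64 CPM. Trophocytes had ratios of -1.75 for Rgs5, 0.57 for Abcc9 and 2.14 for Cspg4.

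In LECs the Kcnj8 ratio was -0.35 (-0.69 to -0.03), while the median gene of LECs was at -0.27. The Kcnj8 level of LECs was therefore about equal in the tissues relative to the median gene, whereas that of SEMFs was not. Abcc9 was at -1.31 and Rgs5 at -2.93 in LECs, the latter from 3 colon UMIs. SMCs had -1.25 for Rgs5, -1.12 for Cspg4, 2.65 for Abcc9 (50 and 29 UMIs) and 1.46 for Kcnj8 (22 and 29 UMIs). In BECs Rgs5 was at 3.17, from 42 and 38 UMIs.

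**Figure D4:**
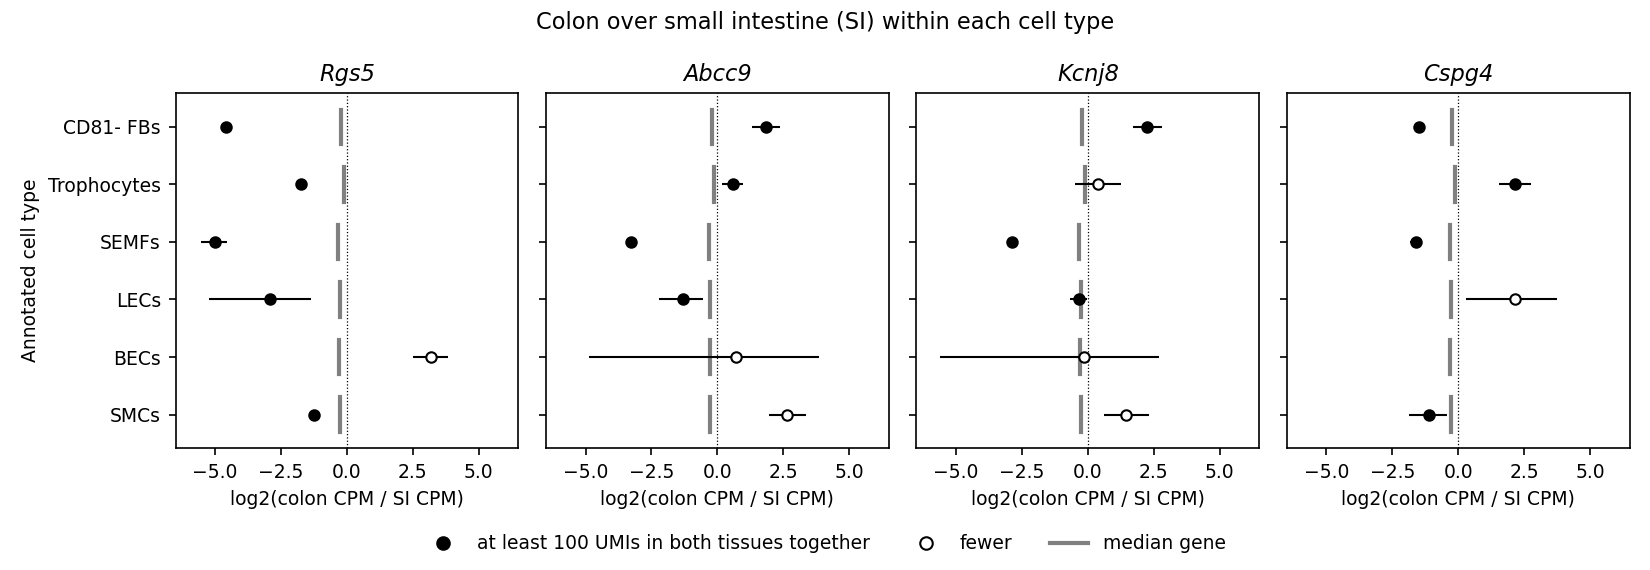
Log2 ratio of colon over small intestine for Rgs5, Abcc9, Kcnj8 and Cspg4 within each cell type; circles are ratios with exact 95% intervals for counting error, open where fewer than 100 UMIs were counted, and grey bars mark the median gene of the type. Abcc9 and Kcnj8 lie at -3.28 and -2.87 in SEMFs and at 1.84 and 2.24 in CD81- FBs, while Kcnj8 in LECs lies at -0.35, beside the median gene.

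The colon library held cells of both sexes by their transcripts: 520 SEMFs had Xist and no Y-linked UMIs, and 323 had Y-linked and no Xist UMIs. Abcc9 was at 51.4 and 69.1 CPM in these cells, Kcnj8 at 46.6 and 66.1 CPM and Cspg4 at 38.9 and 27.0 CPM. Both groups of cells were below the small intestinal level for each of these genes. Rgs5 in CD81- FBs was at 14.8 CPM in 1615 Xist cells and 49.8 CPM in 1040 Y-linked cells, against 778 CPM in the small intestine. Animals and sexes cannot be told apart here. Small intestinal cells were not split this way, because that library has no counts of Xist. Whether the libraries differ in their make-up by sex was therefore not tested, nor was the part of sex in the ratios between tissues.

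Genes with the profile most like each member were sought over 12 points (6 types in 2 tissues) among 9425 genes, by Pearson's r of log2(CPM + 10). The points share libraries and depth, so r is a description. Abcc9 was most like Gadd45a (r = 0.964), Lmo3 (0.929) and Thsd7b (0.921). Kcnj8 was most like Retreg1 (0.974), Wasl (0.913) and Tgfbrap1 (0.910). For Cspg4 the nearest were Trappc10, Dvl3 and Tsen15 (0.950, 0.950 and 0.944), and for Rgs5 Gk, Zbtb8a and Edem1 (0.884, 0.877 and 0.874). A high r does not mean a change of like size: Tsen15 ran only from 21.4 to 30.0 CPM, and Cspg4 from 0 to 106 CPM. With 1 CPM added in place of 10, the nearest of Cspg4 became Tenm4, Glo1 and Arhgap42. Tafa2 then entered for Abcc9 and Guk1 for Kcnj8, while those of Rgs5 stayed. Abcc9 and Kcnj8 had r = 0.862 with each other. Notch3 was too low in all 12 points for its profile to be compared.

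**Figure D5:**
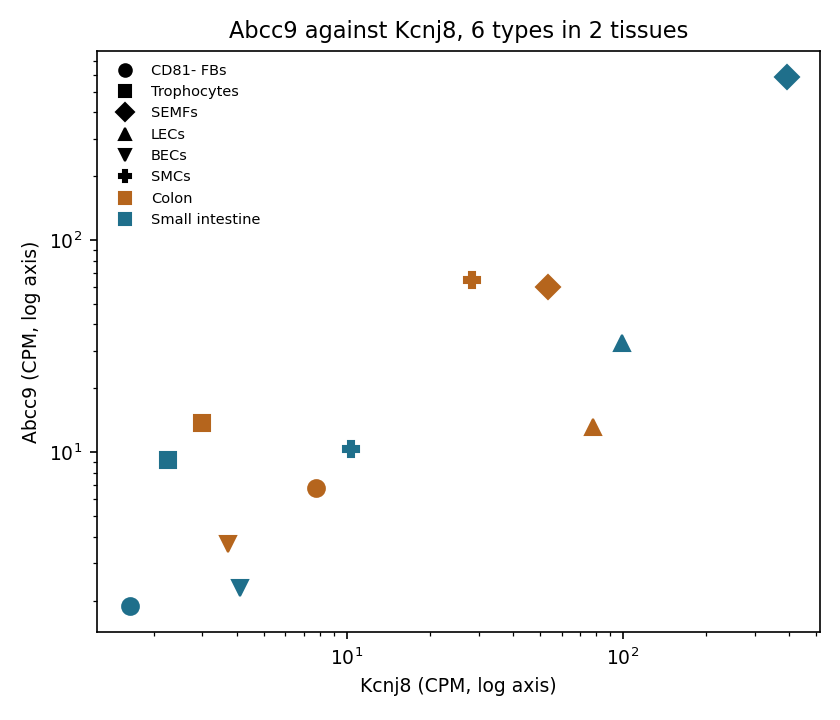
Abcc9 against Kcnj8 (CPM, both axes log) in 6 cell types (symbols) of the colon (brown) and small intestine (blue). Small intestinal SEMFs lie highest for both genes (585 and 392 CPM), and the LECs lie at 77.9 and 99.6 CPM of Kcnj8 with 13.1 and 32.7 CPM of Abcc9.

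Rgs5-positive and Rgs5-negative small intestinal SEMFs were compared after thinning (183 and 896 cells). Higher in the positive cells were Sfrp1, a secreted Wnt antagonist (175 and 26.2 CPM; log2 ratio 2.74, 2.17 to 3.31), Aldh1a3, a retinoic acid enzyme (191 and 64.7 CPM), the elastic fibre gene Eln (137 and 56.4 CPM), Gsn (648 and 291 CPM), Rad51b, Sorcs2, Atrnl1 and Plpp3. Lower were Igfbp5, an IGF-binding protein (322 and 1162 CPM; -1.85, -2.13 to -1.58), Tm4sf1 (51.9 and 168 CPM), Rbpj, the Notch cofactor (30.1 and 82.6 CPM), Pde5a (54.6 and 138 CPM), Hspa1b, Ccm2, Brinp3 and Apba1. Of 4281 genes, 0.187% were higher and 0.397% lower by at least 2-fold on the scale of CPM plus 10. Abcc9 was found in 62.8% of the positive and 66.3% of the negative cells. Kcnj8 was found in 56.3% and 50.7%, at 511 and 413 CPM (log2 ratio 0.31, 0.07 to 0.54). Markers of other cell types moved with this split. Of the 4 measured CD81- fibroblast markers 3 had a ratio whose interval lay above 0, with a summed level of 2874 and 2354 CPM: Fbln1 (107 and 28.5 CPM; 1.90, 1.26 to 2.53), Col14a1 (log2 ratio 1.00, 0.42 to 1.56) and Adamdec1 (2489 and 2127 CPM). Of the 7 trophocyte markers (172 and 97.1 CPM in sum) the complement gene C3 did (65.6 and 13.4 CPM; 2.29, 1.41 to 3.17). Of the 9 measured pericyte markers other than Rgs5 (1333 and 1260 CPM in sum), 2 had an interval above 0 and 0 below. These were Kcnj8 and Pdgfrb (156 and 113 CPM, log2 ratio 0.46, 0.01 to 0.89). Of 6 lymphatic markers 1 had an interval above 0. Among 7 smooth muscle markers 1 lay above 0 and 1 below. The 8 SEMF markers summed to 8191 and 8672 CPM. Of these, 0 had an interval above 0 and 1 had an interval below 0. That 1 was Pdgfra (2470 and 2832 CPM, log2 ratio -0.20, -0.30 to -0.09). The part of other cell types in the split was not tested.

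The same comparison in small intestinal CD81- FBs (1624 and 1146 cells), chosen after its values were seen, gave Dkk2, another Wnt antagonist (255 and 118 CPM), Apoe (780 and 383 CPM), Nkain3, Edil3 and Nlgn1 as higher. The defensin genes Defa21 (34.8 and 2.18 CPM), Defa22 and Defa24, products of Paneth cells of the epithelium, were higher too, and the part of epithelial RNA in this was not tested. Lower were Mmp10 (131 and 467 CPM), Cxcl14 (49.6 and 172 CPM), Nrg1 (30.8 and 109 CPM), Pi16, Wnt4, P2rx1, Frmd5 and Ebf1 (82.8 and 191 CPM). Of 7136 genes, 0.0841% were higher and 0.126% lower by at least 2-fold. Pdgfrb, the pericyte receptor, was found in 17.4% of Rgs5-positive and 17.6% of Rgs5-negative cells. The 7 smooth muscle markers summed to 579 CPM in the positive and 905 CPM in the negative cells, and 3 of them had an interval below 0. Of the trophocyte markers other than Pi16, which was lower as named above, 2 of 6 had an interval above 0 (1730 and 1391 CPM in sum). The part of these cell types was not tested.

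In colon SEMFs the Abcc9-positive cells (105 of 1096 after thinning, also chosen after seeing values) had more Tafa2 (143 and 47.4 CPM), Dmd (224 and 86.8 CPM) and Hpse2 (681 and 334 CPM), and less Igfbp6 (19.0 and 113 CPM) and Plau (9.52 and 67.1 CPM) than the 991 negative cells. Of 3435 genes, 0.233% were higher and 1.31% lower by at least 2-fold. The 7 smooth muscle markers summed to 3395 CPM in the positive and 2426 CPM in the negative cells, with 2 intervals above 0, and their part was not tested.

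Other genes linked to mural cells did not share 1 site either. Of 28 listed, 26 had counts in the colon library and 27 in that of the small intestine. In each tissue 6 had their highest level in SEMFs, beside 18.5% (colon) and 32.8% (small intestine) of all genes with at least 100 UMIs. The list itself had no such minimum. Its 6 genes include Nrip2 in the colon (8 UMIs) and Higd1b in the small intestine (15 UMIs). Among these listed genes were the endothelin receptors Ednra (281 and 943 CPM in colon and small intestinal SEMFs) and Ednrb (225 and 669 CPM). Pdgfrb was at 102 and 124 CPM in SEMFs and at 116 and 95.6 CPM in CD81- FBs. Of the 14 with at least 100 UMIs in SEMFs, 4 were lower and 4 higher in the colon by at least 2-fold, with a median log2 ratio of -0.36 beside -0.33 for all genes, of which 15.1% were lower and 5.36% higher. The median of the list thus lay close to that of all genes.

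Values for other genes known from pericytes varied in SEMFs. Ndufa4l2 had 0 and 0.307 CPM, Vtn 0.269 and 1.23 CPM and Rgs4 0.269 and 6.75 CPM in colon and small intestine. In the 8 pericyte-labelled cells Ndufa4l2 had 11 UMIs, Cox4i2 16 and Vtn 16. Cox4i2 had 15.7 and 2.15 CPM in SEMFs, opposite in tissue order to Abcc9 and Kcnj8.

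Of 9 other RGS genes, 5 had at least 100 UMIs in SEMFs. Among these, 0 were lower and 4 higher in the colon by at least 2-fold, with a median log2 ratio of 2.21, while Rgs5 was lower there. Beside this list and the Notch list below, 15.1% of 10001 genes were lower and 5.36% higher in colon SEMFs, with a median of -0.33. Rgs2 was at 125 and 7.51 CPM, Rgs10 at 735 and 271 CPM, Rgs3 at 80.3 and 17.3 CPM and Rgs17 at 48.4 and 7.67 CPM. Of 10 Notch ligands, receptors and targets, 5 reached this number of UMIs, with 0 lower and 2 higher (Hes1 at 592 and 96.9 CPM, Dll1 at 13.9 and 1.53 CPM) and a median of 0.06. The partner genes Kcnj11 and Abcc8, which encode the channel subunits of pancreatic beta cells, were listed in neither library and have no counts here.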

How the data were processed

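Raw UMI counts per gene and cell, as the authors deposited them, were used for all values (1 table per tissue). Cell Ranger 7.1.0, Seurat 4 and the build mm10 are named in the submitters' processing notes, and the filters on cells are not given in the sources used here. The deposited natural log values were not used. Cell types came from the authors' deposited labels. The 5 genes, the gene lists and the comparisons were chosen with earlier results of these data known. Named besides the members are the genes of the fixed lists and the 3 genes most like each member (at least 20 CPM in 1 point, with 10 or 1 CPM added). The 8 highest and 8 lowest genes between Rgs5-positive and Rgs5-negative small intestinal SEMFs are named as well. Genes of the same ranking by Rgs5 in small intestinal CD81- FBs and by Abcc9 in colon SEMFs are named too, both chosen after their values were seen. These rankings skip genes of the mitochondrial genome, of ribosomal proteins, haemoglobin and immunoglobulin, and sex-linked transcripts such as Xist.

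UMIs were summed per type and given as CPM with exact Poisson intervals. Ratios carry exact conditional binomial intervals, and shares of cells exact Clopper-Pearson intervals. All intervals (95%) cover counting error only, and 3 UMIs stand for the level that a count of 0 allows. No p-value was computed, since cells are not replicates. For equal depth, cells were thinned to 2000 UMIs, leaving out shallower cells. Doublets were not removed. Scrublet scores (scanpy 1.11.5) served only to leave out the highest 6% in an alternative. The ratio intervals were tested on simulated SEMF counts with known changes. Promoters came from a RefSeq table (GRCm38.p6), in which all 5 genes were found, and gene positions from GENCODE.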

Additional observations from a re-analysis of the deposited data

Results flagged for a closer look

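The pairs below point in opposite directions between cell types, with intervals on either side of 0, but the difference itself was not tested. Abcc9 had a log2 ratio of colon over small intestine of 1.84 in CD81- FBs and -3.28 in SEMFs. Kcnj8 had 2.24 in CD81- FBs and -2.87 in SEMFs. Cspg4 had 2.14 in Trophocytes and -1.60 in SEMFs. Each positive value comes from a type with a low level in both tissues: Abcc9 at 6.76 and 1.89 CPM, Kcnj8 at 7.73 and 1.64 CPM and Cspg4 at 10.8 and 2.46 CPM.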

How the results depend on the processing

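The direction of a ratio turned only for Notch3 in small intestinal SEMFs over other cells, whose interval spans 0: the log2 ratio was 0.21 (-1.18 to 1.36), and -0.71 with each cell weighted equally, -0.44 without the highest cell and -0.29 after thinning. Over all results, 87 of the 123 alternative values stayed within the counting interval of the main value. With only colon cells that have Y-linked and no Xist UMIs, the log2 ratio of colon over small intestine in SEMFs was -3.79 for Rgs5, -3.08 for Abcc9, -2.57 for Kcnj8 and -1.97 for Cspg4, and that of SEMFs over other colon cells -2.33 for Rgs5, 2.39 for Abcc9 and 2.72 for Kcnj8. After leaving out 6% of each library by doublet score, Rgs5 gave -5.95 between tissues, -4.56 for SEMFs over other cells in the colon and -1.74 in the small intestine, and Abcc9 5.90 in the small intestine. Leaving out the highest cell gave -6.15 and -4.40 for Rgs5 in the colon. After thinning, Abcc9 was at -3.49 between tissues, and SEMFs over other colon cells at -3.83 for Rgs5 and 2.18 for Kcnj8, with 3.71 for Kcnj8 in the small intestine. With each cell weighted equally, SEMFs over other small intestinal cells gave 5.54 for Abcc9, 3.77 for Kcnj8 and 2.60 for Cspg4.

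The Pdgfra-positive share fell with depth: after thinning it was 60.0% for Rgs5, 89.5% for Abcc9, 79.5% for Kcnj8 and 83.6% for Cspg4 in the colon, and 99.4% for Abcc9, 99.5% for Kcnj8 and 98.5% for Cspg4 in the small intestine. In colon cells with Y-linked UMIs it was 100% for Rgs5, Abcc9 and Cspg4, and with at least 2 UMIs of the gene 100% for Rgs5, Abcc9 and Cspg4 in the colon and for Abcc9 in the small intestine. The cause of these moves was not tested. Where Notch3 fell to 0 UMIs in a group, no value was formed. No paired analysis was possible because each tissue has 1 library, and for the same reason no library could be left out. Depth limits Notch3 most, with 1 and 7 UMIs in SEMFs.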
